A study of Schizosaccharomyces pombe with 3 samples.

Results

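The genes described here build ribosomes in fission yeast, Schizosaccharomyces pombe: pre-rRNA processing factors, the proteins of small nucleolar ribonucleoprotein particles (snoRNPs) and ribosome assembly factors. Members were chosen by a rule on the gene symbols of the probe annotation, with earlier results of these data known. The rule took the symbol families utp, nop, noc, rpf, nog, ebp, brx, mpp, rix, rcl, dbp, nip, enp, sof, gar and fib followed by a number, and also imp3, imp4, nhp2, cbf5, mrt4, erb1, rrp5, rrp9, rrb1 and has1. It found 30 probe sets, 1 for each of 30 genes, out of 10928 probe sets in all. Measured genes here are the 2896 fission yeast genes that a single-gene probe set named. Another 5390 probe sets had no gene in the annotation, so ranks and shares of all genes cover the named genes only. Genes named in the rule that did not come up were not analysed here. All samples were wild type and formed 1 group of 3 Affymetrix arrays, with 1 array per sample. Every sample was of the plus mating type (h+) and carried leu1-32, ade6-210 and ura4-DS/E, alleles of leucine, adenine and uracil biosynthesis genes. Cells were grown as a liquid culture in YEA, a rich medium, with 30 degrees given as the treatment, and total RNA was measured. No condition was compared with another, and nothing in the labels ties an array to a culture of its own, so the spread between them may be technical.

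Ribosome synthesis begins in the nucleolus, where RNA polymerase I transcribes a long precursor of ribosomal RNA. Box C/D snoRNPs methylate this precursor and box H/ACA snoRNPs turn chosen uridines into pseudouridines. The small-subunit processome, a large particle built around the U3 snoRNA, folds and cleaves the part that becomes the small subunit. Other assembly factors and RNA helicases remodel the part that becomes the large subunit, and the finished subunits leave the nucleus for the cytoplasm. Most of these proteins were first characterised in budding yeast, and the roles given below that name budding yeast are known from that species. In growing yeast, ribosome production is known as a large share of the work of the cell.

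Signals are the authors' linear MAS5 intensities, and log2 values are of the same signals. A probe set's brightness depends on its probe sequences as well as on its transcript, and no length correction can be made on this array. A higher signal of one gene than of another is therefore a statement about signal and not about transcript number. In a culture measured as a whole, fewer cells with a transcript and less transcript per cell cannot be told apart. Over all probe sets, signal reached 2363, 2353 and 2495 on arrays 1, 2 and 3, and the median over the 2896 genes was 298, 302 and 296. Genes that mark the plus mating type were above background in 3 of 3 cases, with summed signals of 554, 556 and 560. Those of the minus mating type were above background in 7 of 7 cases, with sums of 1168, 1177 and 1147. Their part in the values below was not tested. Of all genes 99.9% were above background, so these counts do not inform on mating type. The sums cover 3 and 7 genes and cannot be compared between types. Mean log2 signals of single markers ran from 3.86 to 8.68 for the plus type and from 2.14 to 8.42 for the minus type.

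All 30 genes gave signal far above background, and as a group they lay in the upper part of the range of signals. The brightest member had a signal of 1177, 1123 and 1168 on arrays 1, 2 and 3, and the dimmest had 241, 232 and 238, against a background limit of 1.20, 1.24 and 1.18. The limit was the 95th percentile of the signals of 2601 probe sets for another yeast on the same array. By limma, all 30 were above the limit, by 7.62 to 9.90 on the log2 scale (limma adjusted p between 1.20e-13 and 1.95e-13). This call did not set the members apart, since 99.9% of all genes were called in the same way. With 3 arrays, these p-values rest in part on a variance that limma pools over genes. The size of the margin depends on the scale near the floor, and with a pseudocount of 16 the lowest margin was 3.88.

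The median of the members' mean log2 signal was 9.15, against 8.22 over all 2896 genes. Among the 25% of genes with the highest mean signal were 17 of the 30 members, or 56.7%, where the share of all genes is 25% by construction. The top 10% held 6 members, or 20.0%, against 10% of all genes. No member was in the bottom 25%, which likewise held 25% of all genes. The mean signals of the 30 members spanned a 4.88-fold range from has1 to gar1. The members were chosen with earlier results of these data known, so these counts describe the list and carry no test.

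**Figure D1:**
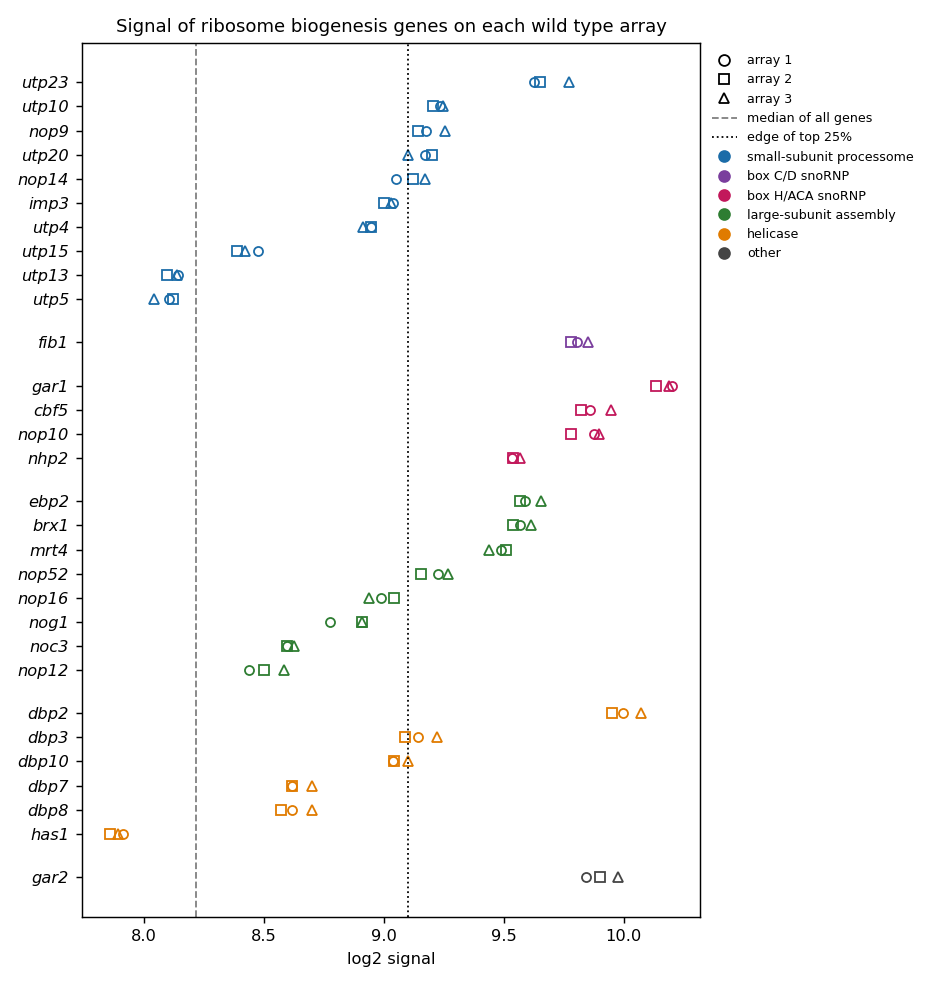
Log2 signal (horizontal axis) of each of the 30 genes on array 1 (circle), array 2 (square) and array 3 (triangle), grouped and coloured by role. The dashed line is the median of all genes at 8.22 and the dotted line is the edge of the top 25% at 9.10. The 3 symbols of a gene lie close together beside the distance between genes, and has1, utp5 and utp13 lie left of the median of all genes.

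Genes of snoRNP core proteins were among the brightest members. All 4 genes of box H/ACA proteins were in the top 25% and 3 of them were in the top 10%, with a median log2 signal of 9.86. The gene gar1, whose glycine- and arginine-rich protein is a core subunit of the pseudouridylation complex, had signals of 1177, 1123 and 1168 on arrays 1, 2 and 3 (log2 10.17 ± 0.04, SD, n = 3). It was the brightest of the 30 members and ranked 109 among all genes. For cbf5, the pseudouridine synthase itself, signals were 928, 904 and 986 (9.87 ± 0.06). The small subunit gene nop10 had 939, 879 and 952 (9.85 ± 0.06). Its gene span of 394 bases is the shortest of the members. The RNA-binding subunit gene nhp2 had 742, 744 and 758 (9.55 ± 0.02), the lowest signals of the group, and the smallest SD of all members at 0.017. The ranges of nop10 and cbf5 overlapped across arrays, while every array had gar1 highest and nhp2 lowest of these 4 genes.

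The box C/D snoRNPs were represented by fib1, which encodes fibrillarin, the methyltransferase of the particle. Its signals were 896, 879 and 924 (9.81 ± 0.04), within the top 10% of genes. The nucleolar protein gene gar2, the counterpart of vertebrate nucleolin, had 918, 956 and 1008 (9.91 ± 0.07) and was also in the top 10%. Its value was lowest on array 1 and highest on array 3.

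The 10 genes of the small-subunit processome ran from 8.09 to 9.68 in mean log2 signal, and 5 of them were in the top 25%. None was in the top 10%. The brightest was utp23, which encodes a PIN-domain protein that in budding yeast acts on early pre-rRNA cleavage, with 791, 805 and 875 (9.68 ± 0.08). Arrays 1 and 2 lay close together and array 3 lay above both. The second was utp10 with 601, 590 and 608 (9.23 ± 0.02). Its product belongs to the subcomplex that in budding yeast joins the nascent precursor first, together with those of utp4, utp5 and utp15. Of these 4 genes, utp4 had 494, 493 and 482 (8.94 ± 0.02) and utp15 had 356, 335 and 343 (8.43 ± 0.05). The fourth, utp5, had 275, 278 and 264 (8.09 ± 0.04), the lowest signals of the processome genes on average. Signals of the 4 subcomplex genes did not overlap with one another on any array, and utp10 alone was in the top 25%.

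The gene utp13, for a WD-repeat protein of another processome subcomplex in budding yeast, had 283, 274 and 282 (8.13 ± 0.02). On array 2 it lay just below utp5, and on arrays 1 and 3 above it. The largest processome protein in the set is the HEAT-repeat protein Utp20, and its gene gave 577, 588 and 549 (9.16 ± 0.05). Signals of nop9, for an RNA-binding protein with Pumilio repeats, were 578, 565 and 610 (9.19 ± 0.06). For nop14 they were 530, 557 and 576 (9.11 ± 0.06), the lowest mean among the members inside the top 25%. Without array 3 nop14 had a mean of 9.09 on the log2 scale and fell just outside the top 25%, which left 16 members. The gene imp3, whose protein pairs U3 snoRNA with the precursor in budding yeast, had 525, 512 and 522 (9.02 ± 0.02) and was outside the top 25% with all arrays.

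The 8 genes of large-subunit assembly lay in the middle of the members' range, and 4 were in the top 25% and 0 in the top 10%. The highest were ebp2, with 769, 759 and 805 (9.60 ± 0.04), and brx1, with 759, 744 and 784 (9.57 ± 0.04). In budding yeast both proteins act early, on the first large-subunit precursors. Next was mrt4, whose protein in budding yeast holds the place of the stalk protein P0 on the immature subunit, with 718, 729 and 695 (9.48 ± 0.04). The gene nop52 had 599, 570 and 617 (9.22 ± 0.06). Its name follows a human nucleolar protein, which is the counterpart of Rrp1 in budding yeast. The other 4 were nop16 with 508, 527 and 491 (8.99 ± 0.05), nog1 with 439, 481 and 481 (8.87 ± 0.08), noc3 with 387, 387 and 395 (8.60 ± 0.02) and nop12 with 346, 362 and 384 (8.51 ± 0.07). Nog1 is a GTPase of the large-subunit precursor, and Noc3 is known in budding yeast for a further role at replication origins. The values of nog1 were low on array 1 and nearly equal on arrays 2 and 3, whereas those of noc3 hardly differed.

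Helicase genes held the second brightest and the dimmest of the 30 members. RNA helicases of the DEAD-box family unwind short RNA duplexes and release bound proteins. The gene dbp2, for a helicase also known for roles in mRNA metabolism, had 1021, 990 and 1076 (10.01 ± 0.06). It was the only helicase gene in the top 10%, and dbp3, with 565, 545 and 597 (9.15 ± 0.07), was the other one in the top 25%. Close below the edge lay dbp10, with 526, 527 and 550 (9.06 ± 0.04). Both Dbp3 and Dbp10 act on the large subunit in budding yeast. Signals of dbp7, also a large-subunit factor there, were 393, 393 and 417 (8.65 ± 0.05). Those of dbp8, a small-subunit factor there, were 393, 380 and 416 (8.63 ± 0.06), so that dbp7 and dbp8 overlapped. The lowest was has1, which works on both subunits in budding yeast, with 241, 232 and 238 (7.89 ± 0.03). It lay at the 40.1 percentile of all genes, and the groups of signals of has1 and dbp2 were far apart on every array.

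Other ribosome biogenesis genes, outside the name rule, had a similar spread of signals. Of 109 listed symbols, 40 matched a measured gene, and all 40 were above background by limma. For at least 6 of them, sbp1, drs1, dim1, rrs1, arb1 and nuc2, the symbol names a gene of another function in fission yeast. This was noticed after the data were seen. Nuc2 is a subunit of the anaphase-promoting complex, Sbp1 binds the GTPase Ran, Arb1 binds Argonaute and Dim1 is a splicing factor. The 34 genes left had a median log2 signal of 9.18, and 19 of them were in the top 25%, 8 in the top 10% and 0 in the bottom 25%. With all 40 genes the median was also 9.18 and the count in the top 25% was 22. Brightest of the full list were sbp1 with a mean log2 signal of 10.13 ± 0.07, drs1 with 10.02 ± 0.06 and snu13 with 9.90 ± 0.04. Of these, snu13 encodes an RNA-binding protein shared by box C/D snoRNPs and the spliceosome. At the lower end were nuc2 with 7.92 ± 0.04, pac1 with 7.82 ± 0.03 and rrp8 with 7.31 ± 0.10. Pac1 is the RNase III that cleaves precursor RNAs, and Rrp8 methylates rRNA in budding yeast.

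In median signal, the members lay below the ribosomal protein genes and above a joint list of genes of RNA polymerase I and its factors. All 121 genes of cytosolic ribosomal proteins, including ubiquitin fusions, were in the top 25%, where 17 of the 30 members were. The median of the members was 9.15 against 10.24 for the ribosomal protein genes, and the top 10% held 20.0% of the members against 90.9% of the ribosomal protein genes. Genes of RNA polymerase I and its factors had a median of 8.68 over 14 genes, with 5 in the top 25% and 2 in the bottom 25%. The RNA exosome, which trims rRNA precursors, had a median of 9.01 over 7 genes, with 3 in the top 25%. Mitochondrial ribosomal proteins had a median of 8.74 over 39 genes, with 10 in the top 25% and 0 in the top 10%. The gene rrp6 was in both the exosome list and the list of other biogenesis genes. The median gene span was 680 bases for the ribosomal protein genes and 2018 for the members, and its part in this order was not tested. No test was made between these lists.

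**Figure D2:**
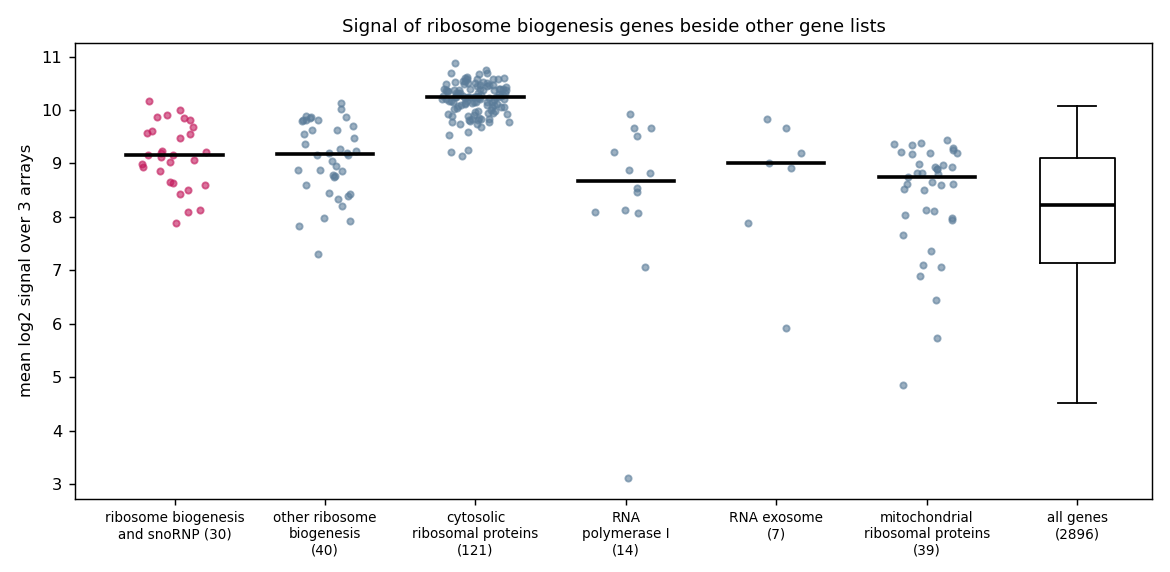
Mean log2 signal over 3 arrays (vertical axis) of each gene (points) in the members and in 5 other lists, with list medians as bars, and of all 2896 genes as a box of quartiles with whiskers at the 5 and 95 percentiles. The 30 members sit between 7.89 and 10.17, mostly below the 121 ribosomal protein genes and mostly above the median of all genes. The list of other ribosome biogenesis genes is drawn with all 40 genes, including the 6 of another function.

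Probe sets for the same families in another yeast showed how much signal fission yeast RNA gave on them. They say nothing about cross-hybridisation between fission yeast genes on the members' own probe sets. The array carries probe sets with capitalised symbols, taken here as those of another yeast because their gene identifiers are absent from the fission yeast table. The name rule, read in capitals, found 66 of them. Their median signal was 0.204, beside 0.206 over all 2601 such probe sets. Of the 66, 1 was above the limit on all 3 arrays, which is 1.52%, against 0.807% of the 2601. The 3 with the highest mean log2 signal were RRP5 with 1.18, 1.70 and 1.46, RIX7 with 1.33, 1.50 and 1.22 and DBP6 with 1.15, 0.862 and 1.38. For 27 of the 30 members the array held a probe set of the same name in capitals, and in 27 of 27 cases the fission yeast probe set was higher on every array. For example, gar1 had 1177, 1123 and 1168, and GAR1 had 1.14, 0.423 and 2.44. This outcome was nearly fixed beforehand, since 99.9% of all fission yeast genes were above the limit taken from the capitalised probe sets.

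**Figure D3:**
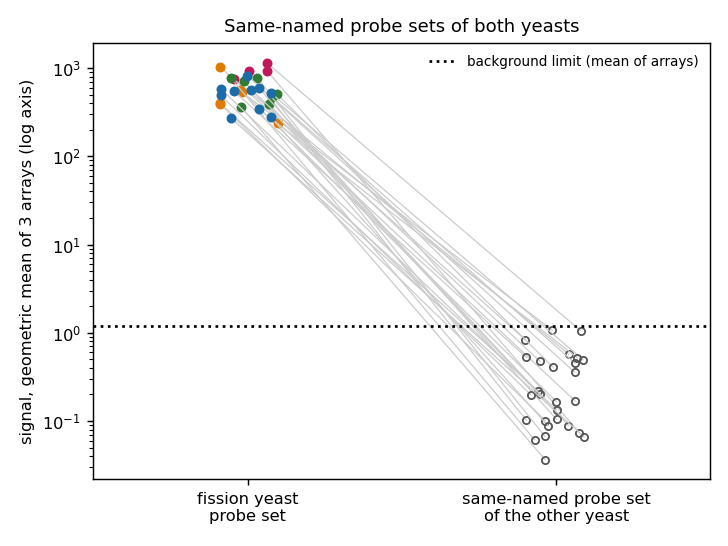
Geometric mean signal over 3 arrays (vertical axis, log scale) of 27 fission yeast probe sets (left, coloured by role as in the plot of members by array) and of the same-named probe sets of the other yeast (right), joined by lines. All 27 fission yeast probe sets lie above the dotted background limit, and all 27 of the other yeast lie below it in their mean.

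Arrays gave close values for the members. The largest SD was 0.077, of utp23, and all 30 members had an SD under 0.1, as did 75.2% of all genes. The median SD of the members was 0.047, beside 0.061 over all genes and 0.043 over genes in the top 25% of signal. Between the highest and the lowest array, 28 of the 30 members differed by less than 1.1-fold, against 60.1% of all genes and 85.1% of genes in the top 25%. The exceptions were nop12 at 1.11-fold and utp23, also at 1.11-fold. After utp23 at 0.077, the next SDs were those of nog1 at 0.077, nop12 at 0.074, gar2 at 0.067 and dbp3 at 0.067.

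**Figure D4:**
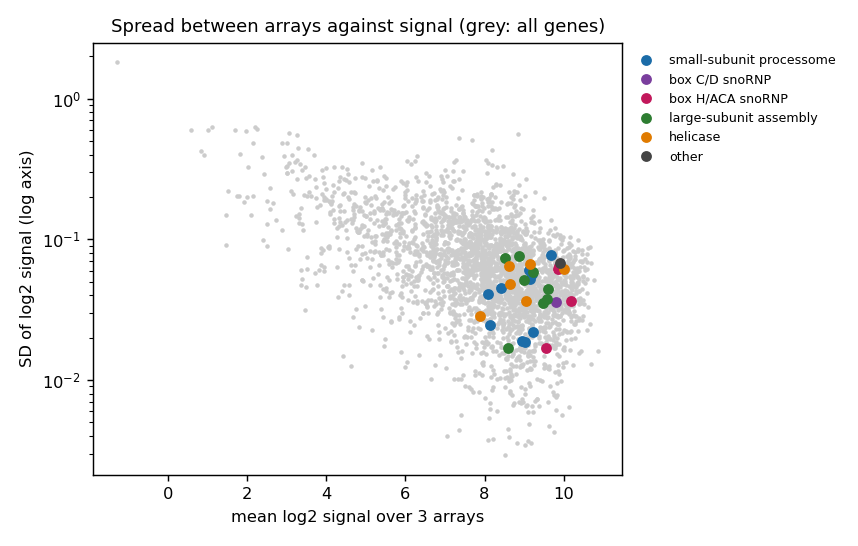
SD of log2 signal between the 3 arrays (vertical axis, log scale) against mean log2 signal (horizontal axis) for all genes (grey) and the 30 members (coloured by role). The members sit between SDs of 0.017 and 0.077, inside the cloud of genes of like signal.

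Most members were highest on array 3 by a small margin. Relative to the mean of the other two arrays, the median member differed by -0.01 on array 1, -0.04 on array 2 and 0.06 on array 3 on the log2 scale. The medians over all genes were -0.002, -0.007 and 0.01, and over the top 25% of genes -0.02, -0.02 and 0.04. Array 3 was the highest of the 3 for 19 of the 30 members, or 63.3%, against 39.4% of all genes and 61.3% of genes in the top 25%. The share among members was thus near that of other bright genes. After quantile normalization the count was 21 of 30, and the shares were 41.2% of all genes and 40.1% of the top 25%. With each array centred on its median it was 22 of 30, beside 46.8% and 70.0%. The shares of the comparison genes thus moved with the scaling, and which scaling fits these arrays was not tested.

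By role group, array 3 was highest for 5 of 6 helicase genes, 5 of 8 large-subunit genes and 3 of 4 box H/ACA genes. It was also highest for 4 of the 10 processome genes, and for fib1 and gar2. The shares were 39.4% of all genes and 61.3% of genes in the top 25%. The groups are small, and no difference between them was tested. The helicase genes had a median of 0.09 on array 3 relative to the other two arrays, against 0.01 for the processome genes. The 5 largest single differences were -0.13 for nog1 on array 1, 0.13 for utp23 on array 3, 0.12 for nop12 on array 3 and 0.11 for each of cbf5 and dbp3 on array 3. Opposite cases were utp20, utp5, nop16, mrt4 and utp4, which were lowest on array 3, with utp20 at -0.09 there. Single genes were not tested between arrays, since 1 array has no replicate.

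**Figure D5:**
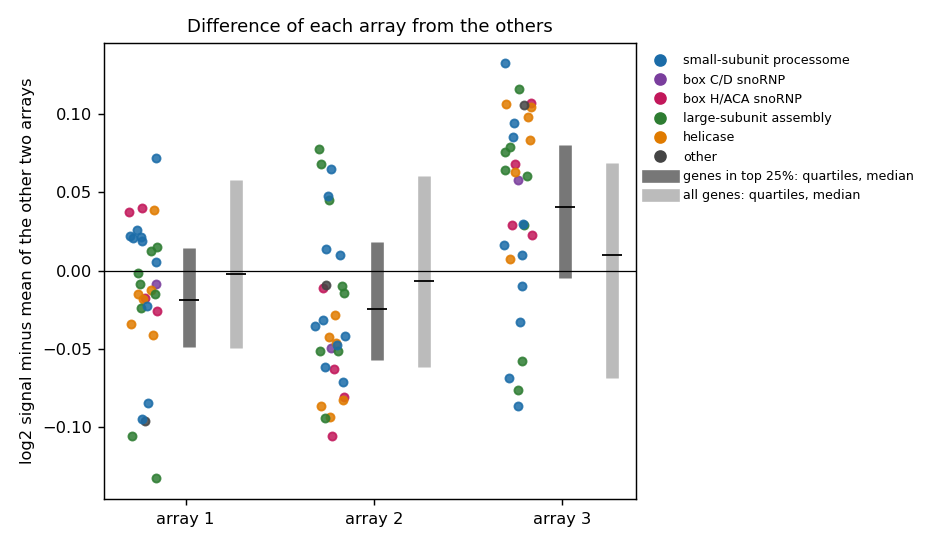
Difference in log2 signal of each array from the mean of the remaining pair (vertical axis) for the 30 members (points, coloured by role), with quartiles (bars) and medians (ticks) of genes in the top 25% of signal and of all genes. The members' median is 0.06 on array 3, and their single values there run from -0.09 to 0.13.

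Across the 30 members, Pearson's r of log2 signal was 0.996 for the pair of arrays 1 and 2, 0.995 for the pair 1 and 3 and 0.994 for the pair 2 and 3. Over all 2896 genes it was 0.996, 0.996 and 0.995. The points of such a correlation share their arrays and their probe sequences, so it describes the order of probe brightness as much as that of transcripts. Signal and gene span were weakly related, with an r of -0.26 over the 30 members and -0.15 over all genes, for log2 of the span. Spans of the members ran from 394 bases for nop10 to 7741 bases for utp20, with a median of 2018 against 1878 over all genes. The annotation used for spans (assembly ASM294v3) may differ from that used to design the probes.

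The members lie scattered through the genome. Chromosome II holds 17 of them, or 56.7%, against 38.1% of all measured genes, chromosome I holds 11 against 44.8% of genes, and chromosome III holds utp13 and utp23 against 17.1%. No test of these shares was made. None of the 30 is the direct protein-coding neighbour of another member or of a measured cytosolic ribosomal protein gene. Mitochondrial ribosomal protein genes lie beside cbf5 (mrps9) and nop52 (mrpl10). The gene utp10 lies beside arx1, an export factor gene for large subunits on the list of other biogenesis genes. The median log2 signal of the members was 9.15, against 8.18 for the 34 measured genes among their 60 protein-coding neighbours. Of these neighbours 7 were in the top 25%, or 20.6%, where all genes have 25%. Among them were trs1 beside gar1 with 10.01, trr1 beside nop14 with 9.81 and trp1 beside nop16 with 9.73, named here after their values were seen.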

How the data were processed

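Total RNA of 3 wild type samples was measured on 1 Affymetrix array each. The deposited table holds a linear signal intensity for each probe set, which the authors computed with MAS5, per the submitters' processing notes and the series' design text. For its scaling target, no value is given in the sources used here. Trimmed by 2% at each end, the mean signal was 150.04 on all 3 arrays, so intensities were used as deposited and turned into log2. Of 5518 probe sets with a single gene, 2914 matched the fission yeast table (2896 genes, probe sets averaged on the log2 scale), 2601 had capitalised symbols and gave the background limit, and 3 had retired identifiers and were left out. Log2 signal minus the limit of the same array was tested with limma 3.58.1 in R 4.3.3 (two-sided, Benjamini-Hochberg over 2896 genes, threshold 0.05), after checking the fit on simulated data. Members and lists were chosen with earlier results of these data known. Values are given for every member; from the other biogenesis list and the capitalised probe sets, the 3 highest (and 3 lowest of the list) by mean log2 signal are named. The number of arrays limits the precision. Protein and promoter sequence features were not analysed here. Other settings tried were leaving out each array, quantile normalization, centring on the median, a pseudocount of 16, 1 probe set per gene (the highest), no shared probe sets, a limit at the 90th or 99th percentile, the top 10%, and a filter at a log2 signal of 7.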

Additional observations from a re-analysis of the deposited data

Results flagged for a closer look

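Outside the members, RIX7, a probe set of the other yeast that the name rule finds when read in capitals, lay narrowly above the background limit. Its mean signal was 1.35, with 1.33, 1.50 and 1.22 on arrays 1, 2 and 3, where the background limits were 1.20, 1.24 and 1.18. It lay above the limit on every array, as did 21 of the 2601 probe sets of the other yeast.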

How the results depend on the processing

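All 30 members stayed above background under each alternative run. The 300 recomputed values of single members kept their direction and their call (limma, largest adjusted p 2.13e-10). The alternatives could hardly have changed a call, since 99.9% of all genes were called in the main run. Sizes did change with the pseudocount of 16. The margin over the limit went from 7.62 to 3.88 for has1 and from 9.90 to 6.09 for gar1. The count in the top 25% was 17 under every scaling and probe set choice and 16 to 17 when an array was left out. In the top 10% it was 6. The members' median exceeded that of all genes by 0.94 on the log2 scale, by 0.91 to 0.94 with an array left out, and by 0.51 when only genes with a log2 signal of at least 7 were kept, a filter that removed dim genes but no member. The median SD of 0.047 ran from 0.026 to 0.053 with an array left out, lowest without array 3. The count of other biogenesis genes above background was 40, and 34 without the 6 genes of another function, an alternative chosen after seeing the data. Each count is the whole list, and nearly all genes on the array were called. The small differences of each array from the others kept their sign under the 5 scaling and probe set alternatives, also added after seeing the data. No paired analysis was possible because the 3 arrays form 1 group.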
